A study of Caenorhabditis elegans with 10 samples.

Results

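The step from the late L4 larva to the young adult was described in hermaphrodites of the nematode Caenorhabditis elegans from whole-animal RNA sequencing. The samples were taken by their labels. The hermaphrodite library of 48 to 52 h after hatching (young adult) was set against the hermaphrodite library of 42 to 46 h (late L4), 2 of the 10 libraries of the series. All 10 libraries came from animals of the him-5 genotype, a mutant background with frequent loss of the X chromosome and so many males, and no wild-type animals entered any comparison. Both sexes were raised at 20 °C on nematode growth medium, fed OP50 Escherichia coli, and received no treatment named in the labels. The hermaphrodite libraries of the other windows (late L3 at 30 to 34 h, early L4 at 36 to 40 h, and a second young adult window at 54 to 58 h) and the 2 male libraries of the compared windows are used here only to place the step. For yolk and uterine genes the male library of 54 to 58 h is also read. Each sex and window had 1 library, so no difference has a replicate check and none was tested. Nothing in the labels says how many animals went into a library.

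Between these windows the hermaphrodite finishes its last molt and starts to reproduce. Its germline makes a limited store of sperm during the fourth larval stage and then switches to oocytes for the rest of life. The adult intestine makes yolk proteins, which oocytes take up through a receptor, and fertilised eggs are wrapped in an eggshell and held in the uterus. The cuticle is a layered coat of collagens and cuticlins that the epidermis builds anew before each molt, in waves of collagen transcription, and the adult coat has collagens of its own.

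The late L4 library held 8189325 reads on genes and the young adult library 18480591, so low genes were measured less precisely at late L4. Of all reads, 11.8% were not aligned at late L4 and 3.31% in the young adult, and 12.9% and 17.8% aligned to several places. Nuclear ribosomal RNA took 9.62% and 10.96% of gene reads, and mitochondrial genes took 5.79% and 3.9%. The part of these differences in the results was not tested. The gene him-5 itself had 17 and 46 reads. The labels do not name the allele, so these reads check nothing. Of 12 genes that mark males, such as the sensory neuron gene pkd-2 and the transcription factor gene mab-3, none reached 5 CPM in either hermaphrodite library. Their summed level was 1.72 CPM at late L4 and 1.62 CPM in the young adult, with 6 and 5 of them at 0 reads, against 203 and 293 CPM in the male libraries of the same windows. The yolk receptor gene rme-2 had 468 and 1052 CPM in hermaphrodites. CPM here are reads per 1000000 gene reads of a library, scaled for library composition.

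Many more genes were strongly lower than strongly higher in the young adult. Change was measured as the log2 ratio of CPM + 1 at 48 to 52 h over 42 to 46 h, among the 9757 genes with at least 5 CPM in the higher of the 2 libraries. At least 4-fold higher were 63 genes (0.646%) and at least 4-fold lower 415 genes (4.25%). At a limit of 2-fold these numbers were 790 (8.1%) and 1539 (15.8%). The median log2 ratio of the 9757 genes was 0.239, so the bulk of genes sat slightly above 0, and all values below are to be read against that median. It was -0.07 when libraries were scaled by size only, when 30 genes were higher and 603 lower, and 0.37 with RLE factors. The 63 higher genes together held 0.565% of gene reads at late L4 and 2.34% in the young adult. The 415 lower genes went from 1.9% to 0.111%. In whole animals, fewer cells of a type and less RNA per cell cannot be told apart.

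Counting error was small beside most of these differences. At least 100 reads stood on the higher side for 57 of the 63 higher genes and for 258 of the 415 lower genes, while 10 of the higher genes had at most 3 reads at late L4 and 35 of the lower genes had at most 3 in the young adult. Ratios of reads are given with exact binomial 95% intervals, which cover counting error only and not the spread between animals. When the whole interval had to lie past 4-fold, 39 genes were higher and 372 lower. The limit cut a continuous range. The histone gene his-17 stood just inside it (58 and 473 reads) and F19B10.2 just outside (6 and 91 reads). Among lower genes, igeg-1 (46 and 9 reads) was just inside and C32D5.4 (61 and 16 reads) just outside.

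**Figure D1:**
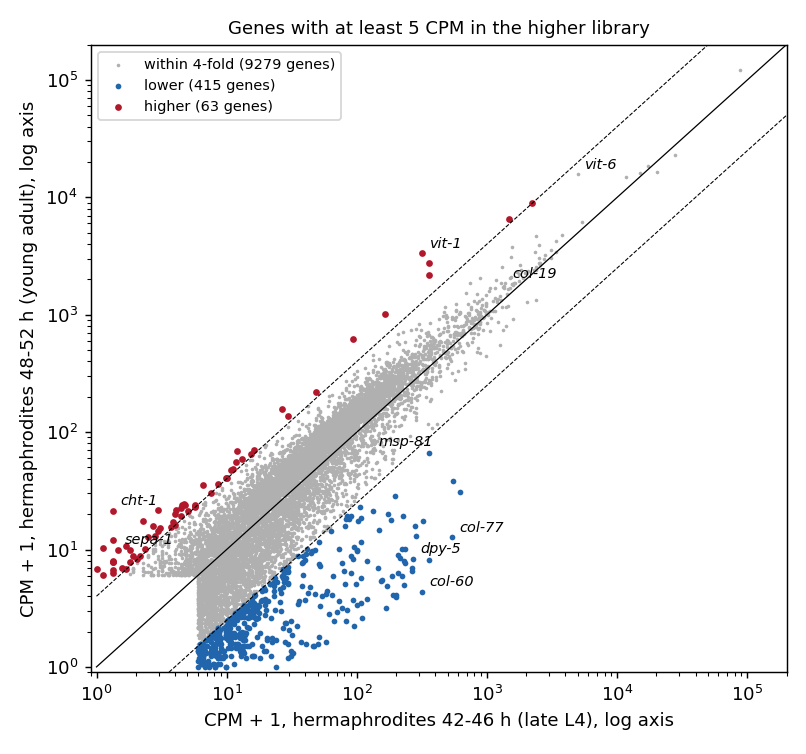
Levels of 9757 genes in the 2 hermaphrodite libraries, as CPM + 1 on log axes, one point a gene. The solid line marks equal levels and the dashed lines 4-fold. Blue points are the 415 lower genes, with collagens such as col-60 and dpy-5 far below the line, and red points the 63 higher genes, in which vit-1 stands out at a high level.

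In scaled CPM, all 63 higher genes had their highest hermaphrodite level at 54 to 58 h, the window after the step. For some this rests on the scaling. The young adult library and the one after it held 18480591 and 17816317 gene reads. Of these vit-2 had 144003 and 135842 and col-143 9918 and 9418, slightly lower shares at 54 to 58 h. The median level of the 63 genes was 3.09 CPM at late L4 and 20.4 CPM in the young adult. None of the 415 lower genes had its highest level at 54 to 58 h. Their highest window was 36 to 40 h for 243 genes, 30 to 34 h for 69 and late L4 for 103, so 312 of them were already below their highest window at late L4. Lists are counted over members that reached 5 CPM in either library, and a member that passed only through its higher library had to differ, so summed levels over all members are given beside the counts for the lists this touches most. All oocyte, eggshell, yolk, replication and cell division genes named below passed in both libraries, but only 5 of the 10 shape collagens, 5 of the 16 hedgehog-related genes, 7 of the 17 molting genes, 4 of the 9 astacins, 3 of the 5 precuticle genes and 3 of the 6 adult cuticle collagens did. None of the 9 cuticlins or the 3 furrow collagens did, and 17 of the 24 other sperm genes and 24 of the 25 major sperm protein genes did. So did 14 of the 27 neuropeptide and insulin genes and 60 of the 98 col-named collagens. Among nuclear hormone receptors 45 of 74 did, and among C-type lectins 34 of 47. Genes known only by a sequence name made up 37.9% of the 9757 genes, 28.6% of the higher and 50.8% of the lower genes.

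**Figure D2:**
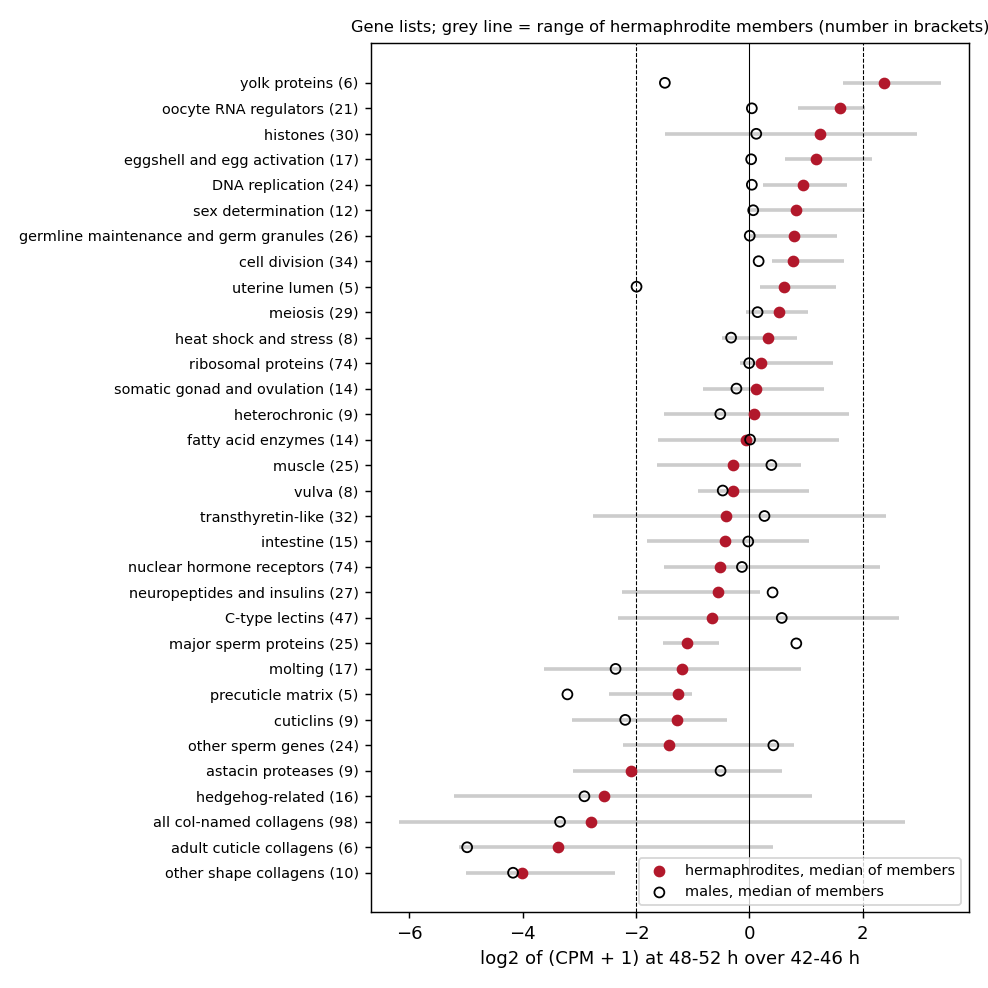
Median log2 ratio of the members of each gene list with at least 5 members past 5 CPM, in hermaphrodites (filled) and in males (open), with the range of hermaphrodite members as a grey line. Yolk proteins lie highest (median 2.38) and shape-giving collagens lowest (median -4.02), and the 2 sperm lists lie left of 0 in hermaphrodites and right of 0 in males.

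Yolk protein genes had the highest median of the lists with at least 5 measured members. The 6 vitellogenin genes encode the yolk lipoproteins that the intestine secretes, and 5 of them were at least 4-fold higher. With library size only 3 were, and vit-2 (log2 ratio 1.71) and vit-5 (1.84) were under the limit. With TMM factors from the 2 libraries alone, vit-2 was again under it (1.91). vit-1 had 7.19, 23.8, 318, 3339 and 3504 CPM over the 5 hermaphrodite windows. Its ratio of young adult to late L4 was 10.49 (10.1 to 10.9). vit-2 had 11.7, 33.4, 2235, 8994 and 9170 CPM, a ratio of 4.02 (3.96 to 4.09). Both genes had far lower levels in the first windows, and most of their adult level was reached by 48 to 52 h. The ratios of vit-3, vit-4 and vit-5 were 7.64, 6.15 and 4.41. vit-6, the vitellogenin gene on chromosome IV, was under the limit with a ratio of 3.16 (3.13 to 3.19), at 4992 CPM in late L4 and 15770 CPM in the young adult. Together the 6 genes went from 9732 to 39520 CPM, from 1.04% to 3.42% of gene reads, and stood at 42440 CPM at 54 to 58 h. Males had 394 and 137 CPM of vitellogenin reads at the same windows, and 503 CPM at 54 to 58 h.

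Genes that oocytes use were higher as a group, mostly by 2- to 4-fold. Among 21 genes for RNA-binding and other regulators of oocytes, 19 were at least 2-fold and 1 at least 4-fold higher, with a median log2 ratio of 1.6 and a range of 0.85 to 2.05. The PUF-family repressor gene puf-7 had 77 and 634 reads, a ratio of 4.5 (3.55 to 5.77). It was under 4-fold with library size only (log2 ratio 1.76) and with TMM factors from the 2 libraries alone (1.95), while RLE factors put 3 members past it. oma-1, needed for oocyte maturation, had 362 and 2671 reads (log2 ratio 1.98), and pie-1, which keeps transcription off in the germline blastomeres, 150 and 1061 (1.89). The translational repressor gene gld-1, which also acts earlier in meiosis, had 1834 and 8972 reads (1.41). lin-41, whose protein holds oocytes in meiotic prophase and which also acts in larval timing, had 998 and 5580 reads (1.6). The lowest of the list was cpb-3, a CPEB-type RNA-binding protein gene, at 0.85. Summed over the list, the level was 2017 CPM at late L4 and 5758 CPM in the young adult.

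The eggshell genes followed with smaller ratios. Of 17 genes of the eggshell and of egg activation, 14 were at least 2-fold and 1 at least 4-fold higher, with a median log2 ratio of 1.17. The member past 4-fold was perm-4, needed for the permeability barrier of the eggshell, with 47.5 CPM at late L4, 217 CPM in the young adult and 306 CPM at 54 to 58 h. Its log2 ratio was 1.87, under the limit, with library size only. The chondroitin proteoglycan gene cpg-2 had 690 and 1544 CPM, and the sperm-binding surface protein gene egg-1 had 234 and 588 CPM. The katanin subunit genes mei-1 and mei-2, which serve the meiotic spindle, had log2 ratios of 0.80 and 0.84. The summed level was 5205 CPM at late L4 and 12270 CPM in the young adult. At late L4 this list was already above its level of 811 CPM at 36 to 40 h.

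Genes of DNA replication and cell division were all above the median of all genes. All 24 replication genes and all 34 cell division genes lay above 0.239, with medians of 0.95 and 0.78. The MCM helicase subunit genes mcm-2 and mcm-7 had log2 ratios of 1.72 and 1.54, while mcm-6 had 0.92. The B-type cyclin gene cyb-3 led the division list with 223 and 713 CPM, a ratio of 3.19 (3.04 to 3.35). The other B-type cyclin genes, cyb-1, cyb-2.1 and cyb-2.2, had log2 ratios of 0.76, 0.88 and 1.07. No gene of either list reached 4-fold. In males, 13 of 24 replication genes had a log2 ratio above 0, with a median of 0.05, and 23 of 34 division genes did, with a median of 0.17.

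Meiosis genes sat closer to the median of all genes than the replication and division lists did. Of 29 meiosis genes, 24 lay above the median of all genes and 1 was at least 2-fold higher, the crossover factor gene zhp-3 (254 and 971 reads). The lowest, lab-1, had a log2 ratio of -0.06. Among 26 genes of germline maintenance and germ granules the median was 0.79, with 3 at least 2-fold higher. glh-4, a germ granule helicase gene, had 181 and 997 reads (1.54), and gld-3 had 1.12. fbf-2, which keeps germline stem cells, had 0.01.

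Histone genes gave 7 of the 63 higher genes. Of 30 histone genes past the minimum, 7 were at least 4-fold and 18 at least 2-fold higher, with a median log2 ratio of 1.25. With library size only, 1 was at least 4-fold higher, and his-1 and his-4 had log2 ratios of 1.92 and 1.94. his-8, a core histone gene, had 11 and 266 reads, a ratio of 13.2 (7.26 to 26.8). his-1 had 248 and 2165 reads, and his-4 had 95 and 873. Core histone genes come in near-identical copies, and reads that fit several copies were given to none, so the split between copies is uncertain. The exceptions were his-70 and his-71, both replacement histone genes. his-70 had 46 and 20 reads (log2 ratio -1.48) and his-71 had 300 and 274 (-0.96). The summed level of the list was 3102 CPM at late L4 and 5929 CPM in the young adult.

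**Figure D3:**
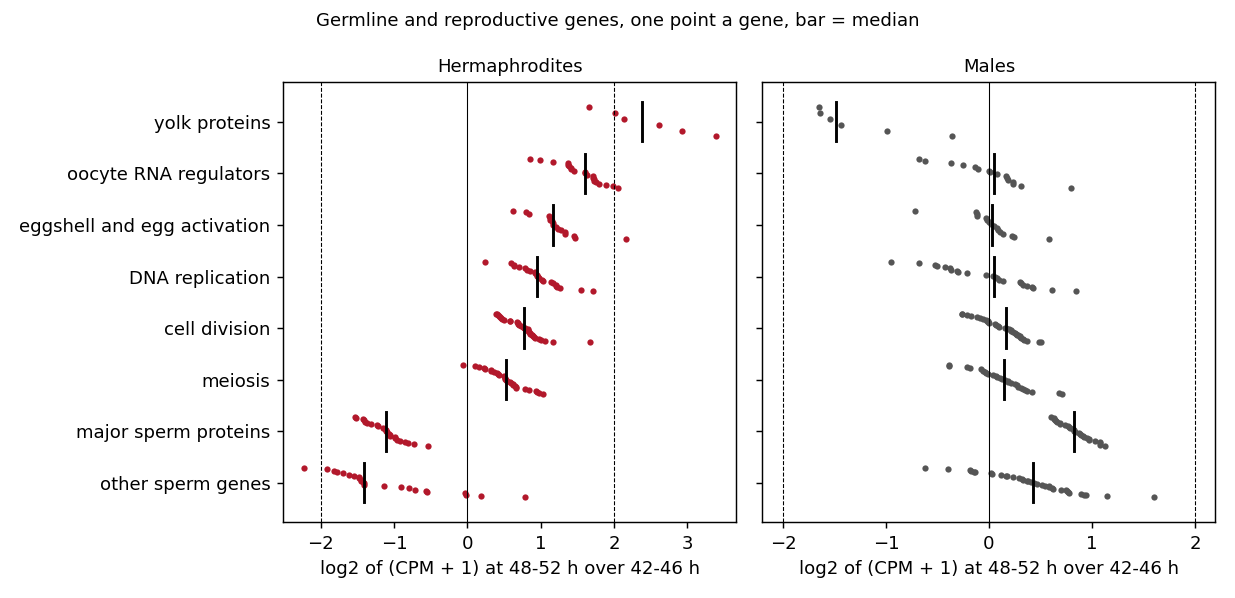
Log2 ratios of (CPM + 1) at 48 to 52 h over 42 to 46 h for members of 8 germline and reproductive lists with at least 5 CPM, hermaphrodites on the left and males on the right, one point a gene, with a bar at the median. In hermaphrodites the yolk, oocyte, eggshell, replication and division genes lie right of 0 and nearly all sperm genes left of 0. In males the yolk genes lie left of 0 and the major sperm protein genes right of 0.

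Several of the 10 highest ratios belonged to genes with few reads at late L4, while vit-1, vit-3 and col-143 among them were abundant there. cht-1, a chitinase gene, had 3 reads at late L4 and 327 in the young adult, a ratio of 59.5 with a wide interval (20.2 to 290.1), and reached 79.4 CPM at 54 to 58 h. vet-6, named as a very early transcript of embryos, had 1 and 148 reads. sea-1, a T-box gene that counts autosomes in embryonic sex determination, had 3 and 176 reads. K04G2.10 had 0 and 93 reads and was at least 16.9-fold higher, taken against 3 reads at late L4. sepa-1 and epg-2, both needed for the clearance of germ granule proteins by autophagy in embryos, had 4 and 143 and 25 and 260 reads. cav-1, a caveolin gene, had 17 and 332 reads. sepa-1 and sea-1 had no read in the male libraries of both windows.

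Further genes past 4-fold, picked here after their values were seen and from no list, are named for single values. vet-2 had 31 and 368 reads, the T-box gene tbx-9 had 35 and 323, and the GATA factor gene egl-18 had 26 and 244. The Wnt secretion gene mom-1 had 12 and 145 reads and the planar polarity gene vang-1 had 13 and 188. Also higher were skr-7 and skr-10, genes related to a ubiquitin ligase subunit, with 7 and 143 and 3 and 112 reads, and the gap junction genes inx-2 and inx-3, with 15 and 236 and 79 and 631 reads. Of these, mom-1, vang-1 and inx-3 had 5.0, 7.82 and 12.1 CPM at 30 to 34 h, so they were also read in larvae.

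Genes transcribed in the early embryo were at the edge of detection. Of 20 such genes, 14 had no read at late L4, and 11 of these 14 had reads in the young adult. The 20 genes had 62 reads in all at late L4 and 526 in the young adult. Only 2 passed 5 CPM. nhr-2, a nuclear receptor gene of the early embryo, had 18 and 226 reads, a ratio of 6.86 (4.24 to 11.8), and elt-7, a GATA factor gene of the gut that is also used after hatching, had 19 and 90. pes-10 had 0 and 42 reads, at least 7.64-fold higher against the same floor of 3 reads, and 7.36 CPM at 54 to 58 h. hnd-1 had 0 and 39 reads. The endoderm genes end-1 and end-3 had 0 and 11 and 6 and 13 reads. pha-4, which is also used in the pharynx, went the other way with 17 and 4 reads. The young adult library was the deeper of the 2, which alone gives more genes a first read.

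Sperm genes were lower in the young adult, most by 2- to 4-fold. All 25 major sperm protein genes past the minimum had log2 ratios below 0, between -1.53 and -0.54, with 17 at least 2-fold lower and none past 4-fold. Major sperm proteins form the cytoskeleton that drives the crawling sperm. The most abundant copy, msp-81, had 127 CPM at late L4, 67.2 CPM in the young adult and 27.7 CPM at 54 to 58 h. The summed level went from 888 to 404 and then 92.1 CPM, and in males from 3631 to 6432 CPM. The copies are near-identical, so their reads are split with uncertainty. Of 24 other sperm genes, 15 were at least 2-fold and 1 at least 4-fold lower, with a median of -1.41. Summed over the 37 genes found, the level was 688 and 363 CPM. With library size only 3 were at least 4-fold lower, and with RLE factors 0. spe-42, needed for the fusion of sperm with the egg, had 45 and 5 reads, a ratio of 0.06 (0.02 to 0.15). fer-1, needed for fusion of sperm organelles, had 86 and 30 reads (-1.91), and the sperm phosphatase genes gsp-3 and gsp-4 had -1.54 and -1.69. spe-39, which serves vesicle traffic in many tissues, was the exception with 495 and 1570 reads (0.78), and spe-44, a regulator of the sperm program, had 179 and 375 (0.19).

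Some of the lower genes were not lower at the same step in males. The 415 lower genes were divided by their ratio at the same step in males, after the values were seen, so the groups are a description. In 133 of them (32%) the male log2 ratio was 0 or above, with a median of 0.36, and none of the 133 was a col-named collagen gene. That their levels held or went up in males is set by this division. At late L4 their median level was 12.5 CPM in hermaphrodites and 61.4 CPM in males, and 132 of the 133 were higher in the male library, 96 of them by at least 4-fold. Of the 190 genes also 4-fold lower in males, 132 were higher in males at late L4, 16 of them by at least 4-fold. Of the 73 with a smaller male loss, 49 were, 21 of them by at least 4-fold. The 19 under 5 CPM in both male libraries could not be, since every lower gene had at least 5 CPM in hermaphrodites at late L4. The share over all 9757 genes was not counted, so these counts cannot be read as a trait of the groups. The hermaphrodite median of the 133 was 1.69 CPM in the young adult and 0.27 CPM in the window after it. None of the 133 lay on the X chromosome, which held 12.2% of the 9757 genes. A sequence name alone was known for 100 of them. alg-4, an Argonaute gene that acts in spermatogenesis, had 88.4, 18.3 and 1.55 CPM over the last 3 hermaphrodite windows and 461 and 581 CPM in males. T13F2.9 had 133, 20.5 and 2.36 CPM in hermaphrodites and 673 and 866 CPM in males.

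Collagens of body shape were lower without an exception among those past the minimum. These genes, named for the squat, rolling, long or blistered worms that their mutations give, encode collagens of the cuticle, and all 10 with at least 5 CPM were at least 4-fold lower, with a median log2 ratio of -4.02. dpy-5 had 724, 1742, 267, 7.37 and 3.58 CPM over the 5 windows, so it was already below its highest level at late L4. Its read ratio was 0.03 (0.02 to 0.03). sqt-2 had 315 and 10 reads and dpy-13 had 1804 and 129. bli-6 had 2442 and 239 reads. The summed level of all 12 members went from 1111 to 62.5 CPM. The 2 members under the minimum, dpy-14 and dpy-17, did not share this course, with 0 and 6 and 21 and 77 reads. dpy-17 reached 22.4 CPM at 54 to 58 h. Of 6 furrow collagen genes, which mark the ring-like grooves of the cuticle, 3 passed the minimum and dpy-8 was at least 4-fold lower, with 87 and 23 reads. Over all 6 genes the level summed to 33.9 CPM at late L4 and 8.56 CPM in the young adult.

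Collagens known from the adult cuticle split in their course. The 6 genes of this list are col-7, col-19, col-62, col-63, bli-1 and bli-2, and 5 were at least 4-fold lower. col-63 had 1508 CPM at 36 to 40 h, 170 CPM at late L4 and 3.94 CPM in the young adult. The strut collagen genes bli-1 and bli-2 had 459 and 564 CPM at 36 to 40 h, 13.3 and 16.9 CPM at late L4 and under 1 CPM thereafter. col-7 and col-62 were highest at late L4, with 93.1 and 145 CPM, and had 7.37 and 6.0 CPM in the young adult. col-19 alone stayed, at 1375 CPM in late L4, 1847 CPM in the young adult and 1549 CPM at 54 to 58 h. Its read ratio was 1.34 (1.31 to 1.37). With col-19 making up most of it, the summed level of the 6 genes was 1814 and 1866 CPM.

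Over all col-named collagen genes, many were lower while their summed level in scaled CPM stayed about equal. Of 98 such genes past the minimum, 58 were at least 4-fold lower and 3 at least 4-fold higher, and these 58 made up 14% of the 415 lower genes against 1.0% of the 9757 genes. col-60 had the lowest log2 ratio of all genes, -6.19, with 2782 and 54 reads. Next came col-120 (1467 and 35 reads), col-162 (1753 and 47) and col-104 (1744 and 50), and rol-1 (1658 and 49), a cuticle gene of the roller class. The summed level of all col-named genes was 32370 CPM at late L4 and 32250 CPM in the young adult. This near equality rests on the scaling. In reads they had 283047 of 8189325 gene reads at late L4 and 516310 of 18480591 in the young adult, a smaller share. The 58 lower genes went from 8123 to 394 CPM. The 37 genes within 4-fold went from 23900 to 30040 CPM, and the 3 higher genes from 282 to 1779 CPM.

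The turnover among collagens went in steps by window. Of the 58 lower genes, 18 had their highest level in the first window, 25 in the second and 15 in late L4. Of the 37 genes within 4-fold, 18 were highest at 48 to 52 h. The most abundant of these was col-124, with 10.8, 96.5, 2329, 3392 and 2470 CPM. col-119 had 883 and 2066 CPM across the step. col-129 and col-139 were among the 5 largest losses in CPM, with 2391 and 1335 and 2038 and 1278 CPM, and had 232 and 216 CPM at 54 to 58 h. The 3 higher genes were col-143, col-101 and col-95. col-143 had 92.2, 619 and 636 CPM over the last 3 windows, col-101 had 164, 1005 and 1229, and col-95 had 25.9, 155 and 368.

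**Figure D4:**
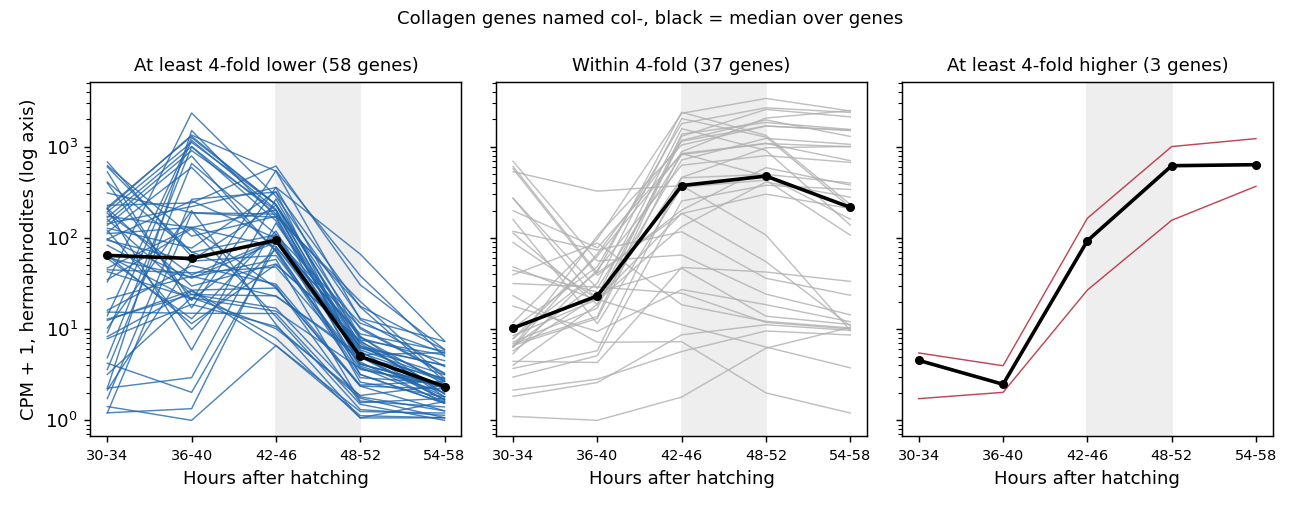
CPM + 1 on a log axis of col-named collagen genes over the 5 hermaphrodite windows, one line a gene, in panels for the 58 lower, 37 within 4-fold and 3 higher genes of the step from 42 to 46 h to 48 to 52 h (shaded). The black line is the median. The lower genes had left their highest level by 48 to 52 h, while the median of the genes within 4-fold went up before the step and stayed high.

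Genes that build and shed the cuticle went down with the collagens, with exceptions. Of 17 molting genes past the minimum, 6 were at least 4-fold and 10 at least 2-fold lower, with a median of -1.18. mlt-8 had 154 and 8 reads, acn-1, a gene of an enzyme-like protein needed for molting, had 306 and 42, and the patched-related gene ptr-4 had 110 and 11. All 3 had their highest level at 36 to 40 h. The summed level of all 23 molting genes was 401 CPM at late L4 and 184 CPM in the young adult. The molting regulator gene nhr-23 went the other way, with 114 and 409 reads (0.92), and the protease gene nas-37, which opens the old cuticle, had 27.2 and 29.7 CPM. Of 5 genes of the precuticle matrix, the transient coat laid down before each cuticle, all were at least 2-fold and 1 at least 4-fold lower. Summed over the 10 genes found, the level was 74.3 CPM at late L4 and 30.5 CPM in the young adult. The lipocalin gene lpr-3 had 49 and 3 reads, and noah-1 had 196 and 122. Both were higher again at 54 to 58 h, lpr-3 at 4.86 CPM after 0.19 CPM, and noah-1 at 33.6 CPM after 7.62 CPM. fbn-1, another matrix gene, had 4.92, 2.81 and 27.1 CPM over the last 3 windows.

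Other epidermal gene families were lower too. Of 16 hedgehog-related genes past the minimum, 9 were at least 4-fold lower and none that much higher, with a median of -2.56. These genes encode secreted proteins, many made by the epidermis. grl-16 had 1948 and 80 reads, grl-21 397 and 8, wrt-4 249 and 3, and grl-5 78 and 0, at least 47.6-fold lower. All 59 genes summed to 621 and 201 CPM. grd-3 and grd-13 were about 2-fold higher, with 378 and 1503 and 23 and 106 reads. Of 9 astacin protease genes, 5 were at least 4-fold lower, with nas-30, nas-36 and nas-38 at 105 and 8, 114 and 15 and 78 and 14 reads. nas-11 and nas-20 had log2 ratios of 0.58 and -0.15. Over all 35 astacin genes found, the summed level was 244 and 167 CPM. Of 9 cuticlin genes, each of which passed the minimum only at late L4, 3 were at least 4-fold lower, and the summed level of all 35 cuticlin genes was 94.5 and 25.4 CPM. cut-4 had 220 and 32 reads and cut-2 had 94 and 7. Of 35 cuticlin and 59 hedgehog-related genes found, the others stayed under 5 CPM in both libraries. C42D4.3, with no gene name, was among the 10 lowest ratios with 823 and 20 reads, and was low at 36 to 40 h (7.2 CPM) between 105 and 94.1 CPM. dct-5, known from a screen for targets of the insulin pathway, had 201 and 0 reads and was at least 123-fold lower. cki-1, which encodes an inhibitor of the cell cycle, had 122 and 27 reads.

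Most muscle, nerve and intestine genes were within 4-fold, with medians below that of all genes. Of 25 muscle genes none was past 4-fold and 5 were at least 2-fold lower, with a median of -0.28. The body-wall myosin gene unc-54 had 2528 and 2732 CPM, while the pharyngeal myosin genes myo-1 and myo-2 had 985 and 885 and 761 and 688 reads (log2 ratios of about -1). The actin gene act-2 had 0.91. Of 140 neuropeptide and insulin genes, 27 passed the minimum, 7 were at least 2-fold lower and none was higher by that much, and none of the 27 lay above the median of all genes. Only 14 of the 27 passed in both libraries, so the filter itself shaped these counts. All 140 genes summed to 655 CPM at late L4 and 458 CPM in the young adult. nlp-30, an antimicrobial peptide gene of the epidermis, had 48 and 6 reads, and nlp-29, of the same kind, 463 and 353. Of 15 intestine genes the median was -0.43. The gut filament gene ifb-2 had 410 and 117 CPM, and the GATA factor gene elt-2 had 104 and 82 reads (-1.07). Yolk genes, made by the same tissue, went the opposite way. asp-1, the most abundant gene of the intestine list, had 1895 and 2039 CPM.

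Metabolic, ribosomal and stress lists stayed near the bulk. Of 14 fatty acid genes, fat-7, a desaturase gene, was higher (861 and 4743 reads, log2 ratio 1.58) and acs-2, an acyl-CoA synthetase gene, lower (1002 and 587, -1.62). fat-7 was back to 76.1 CPM at 54 to 58 h, after 98.5 and 296 CPM. Of 74 ribosomal protein genes the median was 0.21, and 1 was past 2-fold, rps-2, with 297 and 827 CPM and then 1041 CPM. The median of this list and those of the fatty acid, heterochronic and somatic gonad lists changed sign with the scaling. In 8 heat shock and stress genes no ratio passed 2-fold. The inducible small heat shock genes hsp-16.2 and hsp-16.41 had 94.0 and 170 and 120 and 172 CPM across the step, and hsp-70 had 369 and 459 CPM. All 3 were lower at 54 to 58 h, at 54.2, 55.2 and 135 CPM. npa-1, which encodes a lipid-binding polyprotein, was among the 5 largest losses in CPM, with 1253 and 553 CPM. Those losses also took in MTCE.33 and MTCE.7 of the mitochondrial genome, with log2 ratios of -0.28 and -0.31. The largest gain in CPM was the ribosomal RNA gene rrn-2.1 (0.47), followed by vit-6, vit-2 and vit-5, with the translation factor gene eef-1A.1 (0.36) the last of the 5.

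Genes of the uterus, gonad sheath and vulva had small ratios. Of 5 genes of uterine secretions, ule-1 was at least 2-fold higher (222 and 1207 reads, 1.53), while ule-3 had 357 and 548 CPM and ule-2 57.1 and 86.1 CPM. Both were under 1 CPM at 30 to 34 h. Of 14 genes of the somatic gonad and of ovulation, 2 were at least 2-fold higher, the gap junction genes inx-14 (591 and 2198 reads) and inx-22 (460 and 2115), which serve in the germ cells. The filamin gene fln-1 of the spermatheca had 1015 and 999 CPM. lin-3, the EGF-like signal of vulva induction and of ovulation, had 27.2 and 57.8 CPM. The other 7 vulva genes past the minimum had log2 ratios between -0.91 and 0.43. Of 9 timing genes, alg-2, an Argonaute gene, had 114 and 743 reads (1.76), lin-66 had 99 and 473 (1.31) and the nuclear receptor gene nhr-85 had 53 and 24 (-1.50).

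Of 12 sex determination genes past the minimum, sex-1 was at least 4-fold higher. This nuclear receptor gene, one of those that count X chromosomes in the embryo, had 24 and 232 reads, a ratio of 5.28 (3.46 to 8.41). It was under the limit with library size only (log2 ratio 1.79) and with TMM factors from the 2 libraries alone (1.95). fog-1, an RNA-binding protein gene for the sperm fate, had 77 and 337 reads (1.17), and tra-1, the last gene of the pathway, had 594 and 1795 (0.71). her-1, the signal for male fate, had 0 and 20 reads, at least 3.64-fold higher but only 1.25 CPM.

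C-type lectins, which bind sugars, nuclear hormone receptors and transthyretin-like proteins are large families of the worm. Of 47 C-type lectin genes past the minimum, 2 were at least 4-fold higher and 4 lower (7 with library size only), where the shares of all genes were 0.646% and 4.25%. clec-190 had 6 and 154 reads and clec-223 had 26 and 303, and both had at most 0.477 CPM in the male libraries of the same windows. clec-180 had 81 and 17 reads. Of 74 nuclear hormone receptor genes, nhr-2 was the 1 past 4-fold, and 13 were at least 2-fold lower, where 15.8% of all genes were. Of 32 transthyretin-like genes, ttr-50 was at least 4-fold higher, with 27 and 333 reads, and ttr-14 lower, with 1697 and 445 (2 members lower with library size only).

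The same step in males gives a comparison that shares no library with the hermaphrodites. In males, 42 of 11382 genes were at least 4-fold higher (0.369%) and 385 at least 4-fold lower (3.38%), with a median log2 ratio of 0.01. The lists of lower genes shared 190 genes, which is 45.8% of the hermaphrodite and 49.4% of the male list. The lists of higher genes shared 2, col-101 and col-95. Of the 58 lower col-named collagens, 55 were also at least 4-fold lower in males. col-60 had log2 ratios of -6.19 in hermaphrodites and -6.13 in males, and dpy-5 -5.0 and -5.80. The 190 shared genes had median log2 ratios of -3.34 in hermaphrodites and -3.97 in males. Of the 63 higher genes, 47 were under 5 CPM in both male libraries and 13 were within 4-fold in males. At least 5 CPM in the higher male library was reached by 16 of the 63, against 9094 of all 9757 genes compared in hermaphrodites. H04M03.3 went opposite ways, with 3.66 and 23.3 CPM in hermaphrodites and 6.16 and 0.08 CPM in males. No gene was 4-fold lower in hermaphrodites and 4-fold higher in males. The difference between the sexes was not tested.

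**Figure D5:**
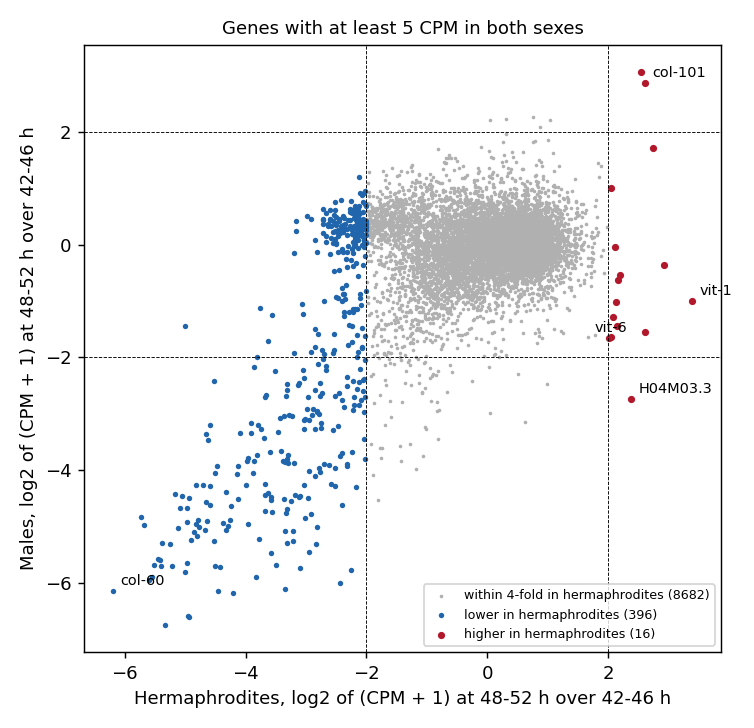
Log2 ratio of (CPM + 1) at 48 to 52 h over 42 to 46 h in hermaphrodites (x axis) and males (y axis) for the 9094 genes with at least 5 CPM in both sexes, one point a gene, with dashed lines at 4-fold. The 396 lower genes of hermaphrodites shown here (blue) form a band that reaches col-60 at the lower left and a cloud near 0 in males. The 16 higher genes (red) include H04M03.3, which lies below the lower line in males.

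By chromosome, the share of higher genes was highest on the X and next on chromosome V. On the X, 17 of 1190 genes (1.43%) were at least 4-fold higher, against 46 of 8485 autosomal genes (0.542%), with 14 of 1609 on chromosome V (0.87%) and 3 of 1710 on chromosome III (0.175%). Of those 17, 5 were vitellogenin genes. Without yolk genes the X share was 1.01%. The median log2 ratio was -0.18 on the X and 0.28 on the autosomes. Genes at least 4-fold lower made up 4.79% on the X and 4.2% on the autosomes.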

How the data were processed

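Whole-animal total RNA was taken with TRIzol and sequenced by a standard Illumina protocol, per the labels' protocols. The authors deposited raw counts of reads for each gene, and per the submitters' processing notes CASAVA 1.8 and HTSeq were used. The aligner, its build, the version of HTSeq and whether it read strand are not given in these sources, so overlapping and antisense genes are uncertain, although no gene past 4-fold shared 20% or more of its exon bases with another annotated gene. Reads with several alignments stayed out of all genes. The 5 totals that name no gene were dropped from the counts, and their shares stand in the text. Of 46589 sequence names, 46183 were matched to Ensembl's WBcel235 annotation and 406 were not.

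Counts were scaled to CPM with TMM factors (edgeR 4.0.16, R 4.3.3) from 15924 genes that had 1 CPM or more in 2 or more of the 10 libraries. Ratios used CPM + 1, a minimum of 5 CPM in the higher library and a limit of 4-fold. No test was run, since each side held 1 library. A fold with 0 reads on a side was taken against 3 reads. The calls and intervals were tried on simulated reads that held counting error only. This checks the calculation, and neither the scaling nor the spread between animals. Named genes are the 10 highest and 10 lowest ratios, the 5 largest gains and losses in CPM, up to 3 members per list past 4-fold by size (or the most abundant member) and marker genes; others were chosen after their values were seen. The libraries compared, the lists and the gene groups were chosen with earlier results of these data known.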

Additional observations from a re-analysis of the deposited data

Results flagged for a closer look

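Yolk protein genes, as the list with medians past 2-fold in opposite directions, and 1 gene past 4-fold both ways differed between the 2 sexes at this step. The median log2 ratio of the 6 yolk genes was 2.38 in hermaphrodites and -1.49 in males, and all 6 genes were higher in the young adult in hermaphrodites and lower in males. In males these genes had at most 201 CPM at 42 to 46 h, the level of vit-6. H04M03.3, a gene on chromosome IV with no gene name, had a log2 ratio of 2.38 in hermaphrodites and -2.73 in males. Sperm genes also had opposite signs with smaller medians in males. All 25 major sperm protein genes past the minimum in hermaphrodites were below 0 there and above 0 in males. Medians were taken over the members past the minimum in each sex. For major sperm proteins they were -1.1 in hermaphrodites (25 genes) and 0.83 in males (29 genes). For the other sperm genes they were -1.41 (24 genes) and 0.42 (36 genes). The difference between the sexes was not tested in any of these cases, since each sex had 1 library per window.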

How the results depend on the processing

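The main counts of 63 higher and 415 lower genes depended on the limits and on the scaling. No paired analysis was possible because each group held 1 library. Higher genes numbered 30 and lower genes 603 (within 1.5 times) with library size only, and 45 higher genes were left with TMM factors from the 2 libraries alone. A pseudocount of 5 CPM gave 12 and 117, a limit of 2-fold 790 and 1539, a limit of 8-fold 4 and 135, and a minimum of 20 CPM 33 and 156. With the whole counting interval past 4-fold, 39 were higher. A pseudocount of 0.5 CPM, RLE factors, no minimum and leaving out ribosomal RNA and mitochondrial genes kept both counts within 1.5 times. The 30 genes higher with library size only were all among the 63. This had to be so, since that setting raises every late L4 level and lowers every young adult level. None of the named genes past 4-fold changed direction under any of the 11 alternatives. This is no check of them, since limits, minimum and pseudocount cannot turn a sign. The scalings moved ratios by far less than 4-fold, as for vit-1, with a log2 ratio of 3.39 and of 3.09 with library size only. Library size only left 1 of 7 higher histone genes, 3 of 5 yolk genes and none of the higher oocyte, eggshell and sex determination genes. Depth limits genes under 5 CPM, among them most embryonic genes.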

Other observations

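Some lower genes lay beside each other. Taken in chromosome order among the 9757 genes, 69 of the 415 lower genes (16.6%) had another lower gene as a neighbour, and 6 runs held at least 3 lower genes. One run on the X chromosome held 4 collagen genes, col-167, col-168, col-169 and col-170, and another on chromosome V held col-144, col-145 and col-10. A further run, on the X chromosome, held gmap-1, gmap-3 and gmap-2. Of the 63 higher genes, 8 (12.7%) had a higher neighbour, and no run reached 3. Lower genes were 4.25% and higher genes 0.646% of the 9757 genes. The share of neighbours that gene order alone would give was not counted, so clustering cannot be read from these numbers. Near-identical neighbours can share reads, and the part of this in the runs was not tested.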
